A study of Homo sapiens with 5 samples.

Results

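The BCL2 family decides at the outer mitochondrial membrane whether a cell starts the intrinsic route of apoptosis. The 10 members described here were matched by gene symbol, and all 10 are listed among the 27189 genes of each library. They comprise 3 anti-apoptotic guardians (BCL2, BCL2L1 and MCL1), 2 effectors (BAX and BAK1) and 5 BH3-only genes (BID, BAD, BBC3, PMAIP1 and BCL2L11). HT1080 cells, a human fibrosarcoma line, sat in type I collagen gels of 2 mg per ml over 24 h. Seeding was at 10 cells/mm3 in 4 matrices (LD, RM, IL-6 and IL-8) and at 50 cells/mm3 in the matrix called HD. LD and HD received no cytokine, IL-6 and IL-8 received the single recombinant cytokine, and RM received both in a ratio of 5 to 2. Each condition was sequenced as 1 library, so no difference between conditions has a replicate check and none was tested. All 4 comparisons with LD share the same LD library.

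The guardians hold the effectors in check. BAX and BAK1, once released, assemble into pores that let cytochrome c out of the mitochondrion, and caspases are then activated. BH3-only proteins carry stress signals to the family: they bind the guardians, and some engage the effectors directly. IL-6 signals through gp130 and STAT3, and BCL2L1 and MCL1 are known STAT3 target genes. Many of these proteins are controlled after transcription, MCL1 and PMAIP1 by rapid degradation and BAD by phosphorylation, which RNA does not show.

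The stretches of 250 bases before the annotated start of BCL2L1, BAX, BAK1 and BBC3 are shown because the ratios between members described below rest on these genes. They come from RefSeq on GRCh38.p14, where 9 of the 10 members had an entry (15 starts in all). MCL1 had no entry, so no stretch of MCL1 was searched for any motif. The outermost start of BCL2L1 was taken. Sequences read 5′ to 3′ on the strand of the gene, and capitals mark GGGCGG (the GC box bound by SP1) or CCAAT on either strand, so that a reverse match reads CCGCCC or ATTGG.
BCL2L1 (chr20:31723964-31724213, minus strand): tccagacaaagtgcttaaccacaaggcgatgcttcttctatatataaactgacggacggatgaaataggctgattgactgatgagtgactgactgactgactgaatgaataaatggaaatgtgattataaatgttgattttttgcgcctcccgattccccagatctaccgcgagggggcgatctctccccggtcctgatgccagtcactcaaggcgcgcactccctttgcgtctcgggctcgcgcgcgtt
BAX (chr19:48954625-48954874, plus strand): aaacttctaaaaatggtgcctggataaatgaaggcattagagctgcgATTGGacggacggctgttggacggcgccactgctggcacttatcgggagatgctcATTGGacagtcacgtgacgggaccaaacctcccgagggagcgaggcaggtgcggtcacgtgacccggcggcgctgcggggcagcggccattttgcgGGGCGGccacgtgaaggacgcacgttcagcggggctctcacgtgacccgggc
BAK1 (chr6:33580277-33580526, minus strand): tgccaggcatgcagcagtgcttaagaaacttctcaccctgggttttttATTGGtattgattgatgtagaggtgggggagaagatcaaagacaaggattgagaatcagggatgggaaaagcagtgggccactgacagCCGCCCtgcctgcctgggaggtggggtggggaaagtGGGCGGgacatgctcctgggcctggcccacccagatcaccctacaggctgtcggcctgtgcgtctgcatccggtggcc
BBC3 (chr19:47232668-47232917, minus strand): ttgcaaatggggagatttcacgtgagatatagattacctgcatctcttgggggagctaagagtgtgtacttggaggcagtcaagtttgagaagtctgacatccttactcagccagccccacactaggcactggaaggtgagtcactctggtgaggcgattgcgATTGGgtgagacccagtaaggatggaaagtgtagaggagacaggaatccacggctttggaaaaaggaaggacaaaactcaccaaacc
The GC box was found in 10 of the 15 stretches of the members, against 42.6% of the 35116 stretches in the table, and CCAAT in 6, against 32.0%. Several stretches of BID and BAD overlap, so these are not independent; by gene, the GC box was found for 6 of 9 members and CCAAT for 5. BAX held 2 CCAAT boxes and 1 GC box, BAK1 held 1 and 2, BBC3 held 1 CCAAT box and no GC box, and the BCL2L1 stretch held neither. TTCNNNGAA, the palindrome that STAT factors bind, was in none of the 15 stretches and in 6.57% of all. The cyclic AMP response element TGACGTCA was also in none, against 1.65% of all. These matches describe letters in the windows only.

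The libraries differed in depth. Reads on all genes other than the ribosomal entry RNA5-8S5, which took 76.9 to 79.6% of the low-density libraries and 51.5% of HD, numbered 1645539 in LD, 1100967 with IL-6, 1120609 with IL-8, 1434366 in RM and only 449661 in HD. The 7 mesenchymal markers (among them VIM, FN1 and CD44) had reads in every library, with a summed level of 7076 to 9672 TPM at low density and 2775 TPM in HD. HD stood apart. Reads were found on 226 of 368 olfactory receptor genes in HD and on 10 to 32 in the other libraries. The 4 leukocyte markers summed to 129 TPM in HD and to at most 1.30 TPM elsewhere, with CD79A at 0 in all 5, and the 3 endothelial markers summed to 53.8 TPM in HD and to at most 1.08 TPM elsewhere. The 3 epithelial markers matched, of 4 listed, summed to at most 27.6 TPM at low density and 55.6 TPM in HD. The 10 members together had 1793 reads in LD, 1159 with IL-6, 1176 with IL-8, 1745 in RM and just 75 for HD, so HD is described last and apart.

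BAX was the most abundant member in each low-density library. Levels are given in TPM (transcript abundance corrected for length, rescaled to a sum of 1000000 per library), with 95% exact Poisson intervals for the counting of reads only. BAX had 524 TPM in LD (482 to 569), 388 with IL-6 (344 to 436), 598 with IL-8 (545 to 656) and 597 in RM (551 to 645). It made up 44.4 to 57.1% of the summed TPM of the members in these libraries. In LD the order after BAX was BBC3 (208 TPM), BAD (163), BCL2L1 (111), BAK1 (31.2), BID (26.6), MCL1 (9.40), PMAIP1 (4.76), BCL2 (1.34) and BCL2L11 (0.378). The intervals of neighbours overlapped for BAK1 and BID, for MCL1 and PMAIP1, for PMAIP1 and BCL2, and for BCL2 and BCL2L11, so their order is not resolved by counting. BCL2L1 overtook BBC3 and BAD with IL-6, and BAD and BCL2L1 both stood above BBC3 in RM.

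**Figure D1:**
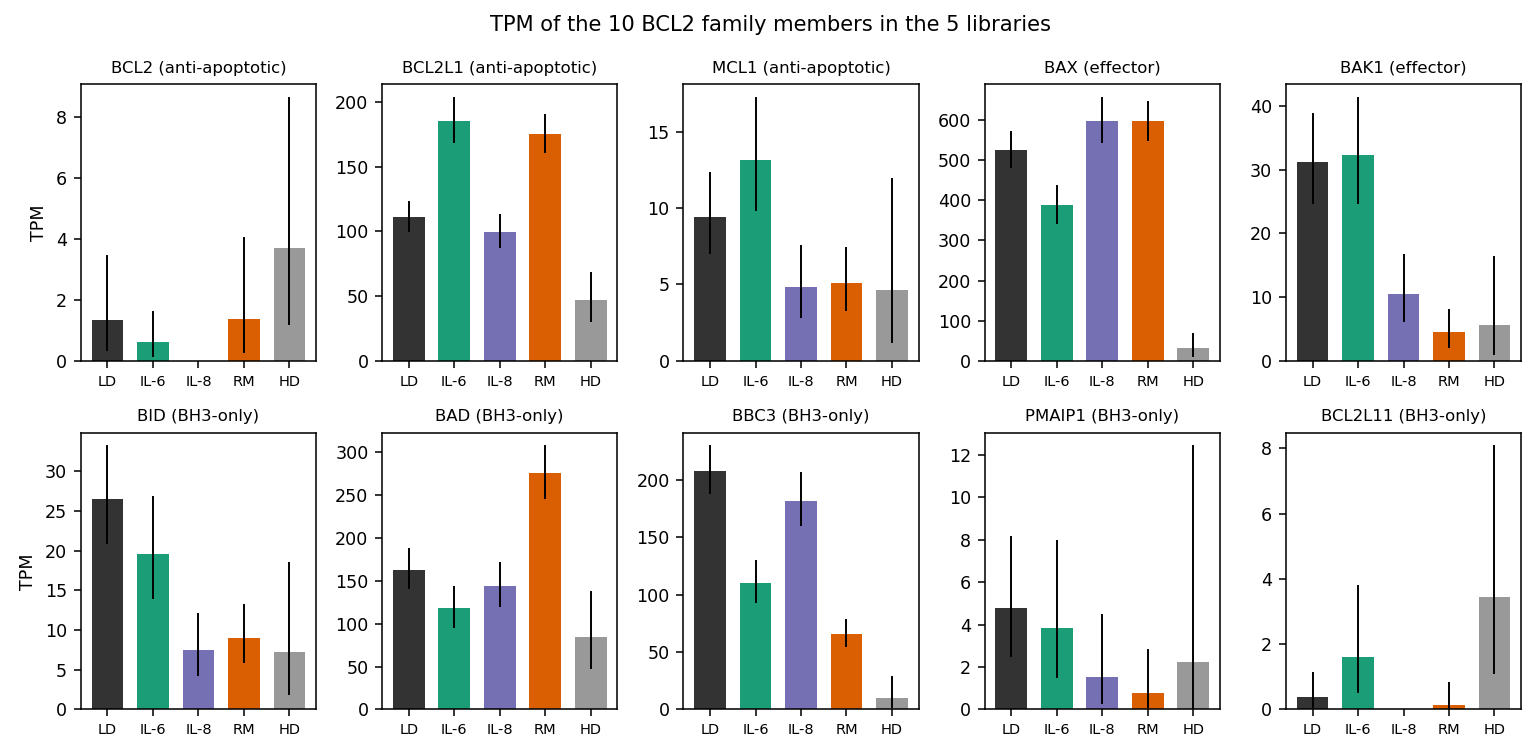
Level of each of the 10 members in TPM (vertical axis, linear, starting at 0 and scaled for each gene) in the 5 libraries; each bar is 1 library, lines are 95% exact Poisson intervals for the counting of reads, and a missing bar is a gene with 0 reads. BCL2L1 is high with IL-6 and RM, BBC3 is low with IL-6 and RM, and BAK1 and BID are low with IL-8 and RM.

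Each difference from LD was taken between log2(TPM + 1) values, so changes of low genes are understated, and a member was called changed at 1 log2 unit or more. Beside each stands the ratio of its share of reads outside RNA5-8S5 to that in LD, with a 95% exact conditional (Clopper-Pearson) interval. Among the 6634 genes with a mean of at least 20 reads over the 4 low-density libraries, the interval left out 1 for 45.2% with IL-6, 62.1% with IL-8, 69.9% in RM and 75.6% in HD. An interval without 1 is therefore common among well-counted genes and marks no member as particular.

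With IL-6 alone, no member was changed by 1 log2 unit, against 9.84% of the 21163 genes tested that were higher and 7.47% that were lower (tested genes had at least 1 TPM in at least 1 library). In IL-8, 4 of 10 members were lower and none higher, against 16.4% and 7.99% of all tested genes. In RM, 4 were lower and none higher, against 20.4% and 6.44%. The members include genes with few reads, and 7 of them (BCL2L1, MCL1, BAX, BAK1, BID, BAD and BBC3) reached a mean of 20 reads. Of these 7, none was called with IL-6, where 7.84% of the 6634 well-counted genes were lower and 7.1% higher. In IL-8, 2 of the 7 were lower, where 22.3% of well-counted genes were lower and 9.41% higher. In RM, 3 of the 7 were lower, where 30.7% were lower and 9.92% higher. With so few members, these counts are near the background of well-counted genes, and nothing is read from them about the family. The median difference over the 10 members was -0.33 with IL-6, -0.65 with IL-8 and -0.52 in RM, beside 0 over all tested genes in each, and over the well-counted genes the median was -0.04, -0.37 and -0.52. The median of the 7 well-counted members, which belongs beside the latter, was -0.42 with IL-6, -0.19 with IL-8 and -0.77 in RM. Median-ratio scaling over the 5 libraries sets the typical gene equal between them, among genes with a level above 0 in all 5, HD included. It is the scaling meant below unless stated. Relative to LD it raised all TPM values of RM by 0.73 log2 units and those of IL-8 by 0.45. Over the 4 low-density libraries alone these shifts were 0.63 and 0.38.

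Among the 3 guardians listed, BCL2L1 carried nearly all of the RNA. BCL2L1, which encodes BCL-XL as its main product, had 392 reads in LD, 452 with IL-6, 262 with IL-8 and 582 in RM. Its level was 111 TPM in LD, 185 with IL-6, 99.8 with IL-8 and 175 in RM. The intervals of IL-6 and RM lay above those of LD and IL-8. BCL2L1 was 0.73 log2 units higher with IL-6 than in LD and 0.65 higher in RM, below the threshold, with read ratios of 1.72 (1.50 to 1.98) and 1.70 (1.50 to 1.94). With median-ratio scaling the RM difference was 1.38 and passed the threshold, while the IL-6 difference was 0.71. In IL-8 the read ratio was 0.981 (0.836 to 1.15), and the difference of -0.15 became 0.29 with median-ratio scaling.

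MCL1, a short-lived guardian, was far lower. It had 53 reads in LD, 53 with IL-6, 19 with IL-8 and 27 in RM, or 9.40, 13.2, 4.82 and 5.08 TPM. The IL-8 and RM libraries were lower than LD by less than 1 log2 unit (-0.84 and -0.77), with read ratios of 0.526 (0.294 to 0.904) and 0.584 (0.353 to 0.946). With median-ratio scaling these differences were -0.46 and -0.14. In IL-6 the ratio was 1.49 (1.00 to 2.23). BCL2, the founding member, was close to absent from these cells by RNA, with 4 reads in LD, 4 with IL-6, 0 with IL-8 and 3 in RM. These counts do not resolve any difference. The BCL2L1 reads per MCL1 read numbered 7.40 in LD and 8.53 with IL-6, against 13.8 with IL-8 and 21.6 in RM. Relative to LD this ratio was 2.91 in RM (exact conditional interval 1.76 to 4.90), 1.86 with IL-8 (1.06 to 3.41) and 1.15 with IL-6 (0.754 to 1.76).

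Of the effectors, BAK1 differed from LD more than BAX did with IL-8 and in RM. BAX had 560 reads in LD, 278 with IL-6, 463 with IL-8 and 626 in RM. Its difference from LD was -0.43 with IL-6, 0.19 with IL-8 and 0.19 in RM, with read ratios of 0.742 (0.640 to 0.858), 1.21 (1.07 to 1.38) and 1.28 (1.14 to 1.44). With median-ratio scaling the BAX differences were 0.64 with IL-8 and 0.92 in RM, still below the threshold. BAK1 had 81 reads in LD, 63 with IL-6, 18 with IL-8 and 11 in RM, or 31.2, 32.3, 10.5 and 4.50 TPM. LD and IL-6 were alike within counting error, and both stood above IL-8 and RM with no overlap of their intervals. BAK1 was 1.48 log2 units lower with IL-8 (difference -1.48, read ratio 0.326, 0.184 to 0.549) and lower still in RM (difference -2.55, read ratio 0.156, 0.0748 to 0.294). Both calls held with median-ratio scaling, at -1.07 and -1.93. BAX reads per BAK1 read numbered 6.91 in LD, 4.41 with IL-6, 25.7 with IL-8 and 56.9 in RM. This ratio was 8.22 times that of LD in RM (4.30 to 17.3), 3.72 times with IL-8 (2.17 to 6.68) and 0.639 times with IL-6 (0.439 to 0.931).

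**Figure D2:**
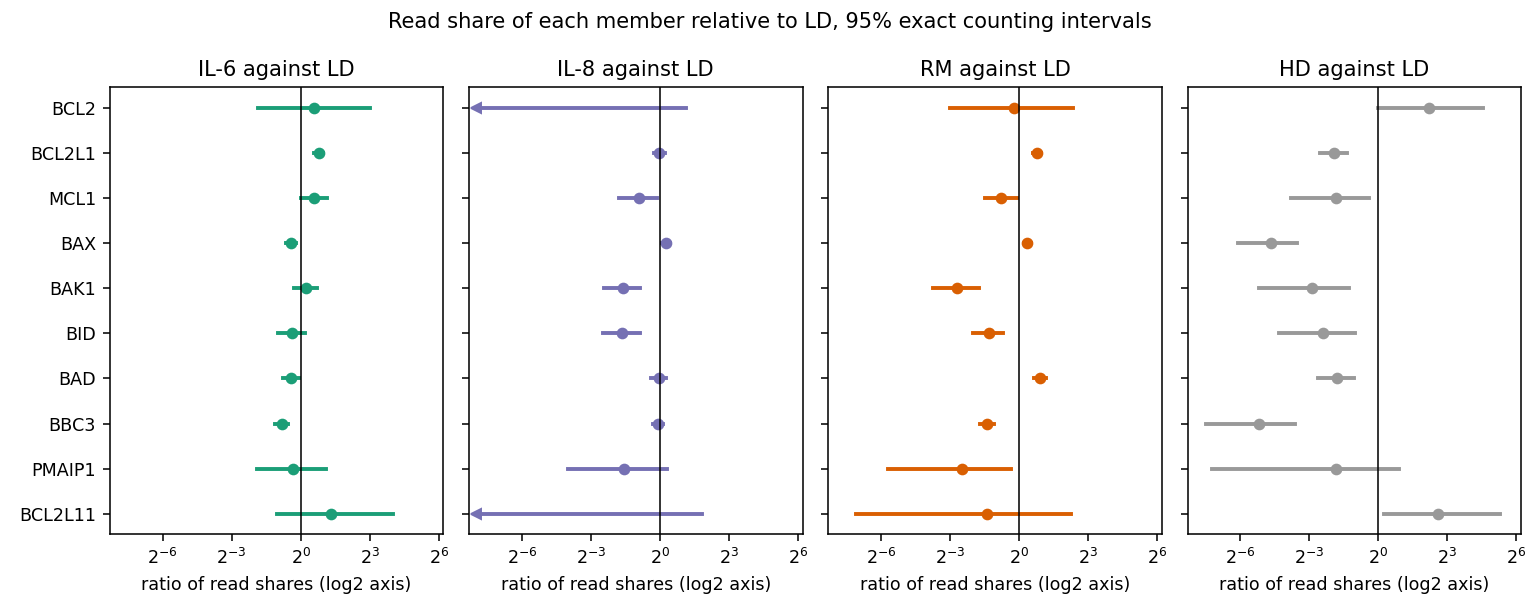
Share of reads outside RNA5-8S5 on each member relative to LD (horizontal axis, log2 scale, 1 marked by a line), 1 panel per library; points are ratios, lines are 95% exact conditional intervals, and arrowheads mark members with 0 reads, whose intervals run to 0. BAK1 lies at 0.326 with IL-8 and 0.156 in RM, and the interval of BCL2L1 lies above 1 with IL-6 and RM.

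Of the 5 BH3-only genes, 2 were lower with IL-8 (BID and PMAIP1) and 3 in RM (BBC3, BID and PMAIP1), and none was higher in either. Of all tested genes, 16.4% were lower with IL-8 and 20.4% in RM. Of the 3 that were well counted, 1 was lower with IL-8 and 2 in RM, where 22.3% and 30.7% of well-counted genes were lower. With so few genes, nothing is read from these counts. BBC3, which encodes PUMA and binds every guardian, had 404 reads in LD, 153 with IL-6, 259 with IL-8 and 134 in RM, or 208, 110, 182 and 65.6 TPM. RM was the lowest and IL-6 the next, and LD and IL-8 were the highest, with overlapping intervals. BBC3 was lower than LD by 0.91 log2 units with IL-6 (difference -0.91, read ratio 0.566, 0.467 to 0.683) and was called lower in RM (difference -1.65, read ratio 0.381, 0.311 to 0.464). Median-ratio scaling took the RM difference to -0.92, below the threshold (-1.03 when scaled over the 4 low-density libraries alone), and turned the small IL-8 difference from -0.19 to 0.26. BAD, whose product is held inactive by survival signals, ran the other way in RM. It had 205 reads in LD, 104 with IL-6, 135 with IL-8 and 332 in RM, or 163, 118, 144 and 276 TPM. The RM library was the highest, with no overlap, at a difference of 0.76 (read ratio 1.86, 1.56 to 2.22), which reached 1.49 with median-ratio scaling.

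BID, which links death receptors to the mitochondrion after cleavage by caspase-8, was called lower with IL-8 and in RM, as BAK1 was. It had 78 reads in LD, 40 with IL-6, 17 with IL-8 and 27 in RM, or 26.6, 19.6, 7.52 and 9.05 TPM. IL-8 and RM were below LD with no overlap, at differences of -1.69 (read ratio 0.320, 0.177 to 0.546) and -1.46 (0.397, 0.246 to 0.622). Only the IL-8 call held with median-ratio scaling, at -1.29 against -0.78 in RM. PMAIP1, which encodes NOXA and binds MCL1 above all, had 13 reads in LD, 7 with IL-6, 3 with IL-8 and 2 in RM. Its difference from LD was past the threshold with IL-8 (-1.19) and RM (-1.70), but the read ratio for IL-8 was 0.339 with an interval of 0.0619 to 1.23, and that for RM was 0.176 (0.0193 to 0.780). The IL-8 call was lost with median-ratio scaling (-0.90), with CPM (-0.87) and with a pseudocount of 5 (-0.58), and the RM call with a pseudocount of 5 (-0.76). BCL2L11, which encodes BIM, had 3 reads in LD, 5 with IL-6, 0 with IL-8 and 1 in RM, too few to compare. A count of 0 allows up to 3 reads as a one-sided 95% limit, or 2.68 in every 1000000 reads outside RNA5-8S5 with IL-8. The remaining call with IL-8 was BCL2, on 4 reads in LD and 0 with IL-8, and it was lost with a pseudocount of 5 (-0.34) and with CPM (-0.64).

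Ratios between members within a library do not depend on how libraries are scaled. The 7 pro-apoptotic members summed to 958 TPM in LD, 674 with IL-6, 944 with IL-8 and 953 in RM. The 3 anti-apoptotic members summed to 122, 199, 105 and 182 TPM. The pro- to anti-apoptotic ratio of summed TPM was 7.85 in LD (95% counting interval 7.04 to 8.76), 3.38 with IL-6 (3.00 to 3.81), 9.02 with IL-8 (7.88 to 10.3) and 5.25 in RM (4.75 to 5.79). IL-6 was the lowest of the low-density libraries and RM the next, while the intervals of LD and IL-8 overlapped. BAX and BCL2L1 set most of this ratio. Without them, the ratio was 40.4 in LD, 20.7 with IL-6, 71.7 with IL-8 and 55.1 in RM, so IL-6 was again the lowest but RM no longer lay below LD. The guardian BCL2L2, which encodes BCL-W and is outside the 10 members, was more abundant than BCL2L1, with 416 TPM in LD, 413 with IL-6, 303 with IL-8 and 261 in RM. With BCL2L2 on the anti-apoptotic side the ratio was 1.78 in LD (1.66 to 1.91), 1.10 with IL-6 (0.999 to 1.21), 2.31 with IL-8 (2.11 to 2.53) and 2.15 in RM (1.99 to 2.33). The lower ratio of RM than LD therefore held for the 3 guardians of the list and was reversed when BCL2L2 was counted, whereas IL-6 was the lowest each time. BCL2L2 shares exons with the readthrough gene BCL2L2-PABPN1, so its own reads are uncertain.

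Ratios of single pairs are given next. Here and in the paragraphs above they are of reads unless stated, which are not corrected for transcript length. BAX to BCL2L1 is not independent of the summed ratio, since these genes make up most of both sums. There were 1.43 BAX reads per BCL2L1 read in LD, 0.615 with IL-6, 1.77 with IL-8 and 1.08 in RM. Relative to LD this was 0.431 with IL-6 (0.352 to 0.527), 0.753 in RM (0.632 to 0.897) and 1.24 with IL-8 (1.01 to 1.52). BBC3 reads per BCL2L1 read numbered 1.03 in LD, 0.338 with IL-6, 0.989 with IL-8 and 0.230 in RM. Relative to LD this was 0.329 with IL-6 (0.259 to 0.416), 0.224 in RM (0.175 to 0.284) and 0.959 with IL-8, with an interval that held 1. The BBC3 to BCL2L1 ratio was thus below that of LD with IL-6 and in RM, and was not resolved from LD with IL-8 alone. The pair was chosen after the data were seen, and these comparisons share the LD library. The intervals cover the counting of reads in these libraries only and give no independent support. BAD reads per BCL2L1 read were 0.523 in LD, 0.230 with IL-6, 0.515 with IL-8 and 0.570 in RM, so the RM library matched LD within counting error (relative ratio 1.09, 0.874 to 1.36).

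**Figure D3:**
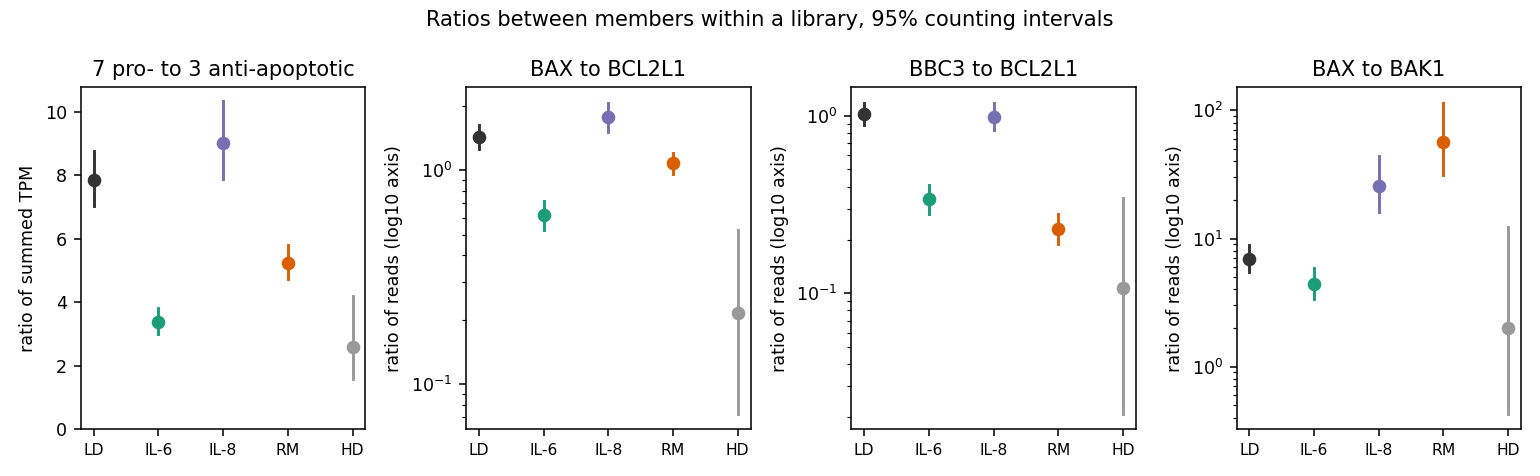
Ratios between members within each library: summed TPM of 7 pro- to 3 anti-apoptotic members (left, linear axis from 0) and reads of BAX to BCL2L1, BBC3 to BCL2L1 and BAX to BAK1 (log10 axes). Points are single libraries and lines are 95% counting intervals; the summed ratio is 3.38 with IL-6 and 7.85 in LD, and the BAX to BAK1 ratio is 56.9 in RM and 6.91 in LD.

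In HD, most members were counted on too few reads to compare. There were 28 reads on BCL2L1, 16 on BAD, 6 on BAX, 5 on BCL2, 5 on BCL2L11, 4 on MCL1, 4 on BID, 3 on BAK1, 3 on BBC3 and 1 on PMAIP1. The leading levels were 84.1 TPM for BAD (48.1 to 137), 46.9 for BCL2L1 (31.2 to 67.8) and 31.0 for BAX (11.4 to 67.5), and their intervals overlapped, so the order of these 3 is not resolved. BAX was lower than in LD (difference -4.04, read ratio 0.0392, 0.0143 to 0.0859), and BBC3 likewise (difference -4.27, read ratio 0.0272, 0.00558 to 0.0800). In all, 5 of 10 members were lower than in LD and 2 higher (BCL2 and BCL2L11, on 5 reads each), against 17.9% and 61.9% of all tested genes. Of the 7 well-counted members, 5 were lower and none higher, against 44.7% and 20.5% of well-counted genes. The median difference of those 7 was -1.75, beside -0.76 over the well-counted genes. The pro- to anti-apoptotic ratio of summed TPM was 2.59 in HD, with an interval of 1.60 to 4.21. Depth and the olfactory receptor, leukocyte and endothelial values above moved together with this library, and their part in the values of the members was not tested.

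The genes around the family were taken from a list of 61, of which 59 were matched and 57 tested. In IL-6, 6 were higher and 4 lower by 1 log2 unit, with IL-8 4 were higher and 15 lower, and in RM 5 were higher and 18 lower. Over all genes tested, 9.84% were higher and 7.47% lower with IL-6, 7.99% and 16.4% with IL-8, and 6.44% and 20.4% in RM. The median difference of the list was -0.11 with IL-6, -0.45 with IL-8 and -0.60 in RM. Among their 34 well-counted genes, 2 were higher and 12 lower in RM, where 30.7% of all well-counted genes were lower. Of the 3 VDAC channels of the outer membrane, VDAC2, a known partner of BAK1, stood at 58.4 TPM in LD, 47.2 with IL-6, 33.3 with IL-8 and 10.8 in RM (difference -2.34 in RM, read ratio 0.216, 0.130 to 0.342). VDAC3 was called lower in all 3 libraries, close to the threshold (difference -1.06 with IL-6 and -1.03 in RM), and VDAC1 in none. The shifts that median-ratio scaling gives, 0.73 log2 units in RM and 0.45 with IL-8, hold for these genes too. The lower calls of VDAC3 with IL-8 and in RM pass the threshold by less than these shifts, so they depend on the scaling.

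Among the 8 inhibitors of apoptosis and their antagonists, 2 were higher and 2 lower with IL-8, and none was higher and 1 lower in RM. Of all tested genes, 7.99% were higher and 16.4% lower with IL-8, and 6.44% and 20.4% in RM. With IL-6, 1 was higher and none lower, against 9.84% and 7.47% of all tested genes. With only 8 genes, nothing is read from these counts. BIRC2, an inhibitor of apoptosis that acts at death receptors, had 161 reads in LD, 73 with IL-6, 58 with IL-8 and 30 in RM, and was called lower with IL-8 (-1.04) and RM (-2.45). BIRC5, which encodes survivin and also serves cell division, was lower with IL-8 (-1.24) and stood at 0.87 in RM. HTRA2, a mitochondrial protease that antagonizes these inhibitors, had 123 reads in LD, 56 with IL-6, 186 with IL-8 and 106 in RM, and was higher with IL-8 (1.69, read ratio 2.22, 1.76 to 2.81). The other gene of this list higher with IL-8 was DIABLO, on 83 reads against 19 in LD (2.52, read ratio 6.41, 3.86 to 11.2). DIABLO was also higher with IL-6, on 56 reads (2.01). ENDOG, a mitochondrial nuclease, was also higher with IL-8 (1.51), on 53 reads against 24 in LD. At the death receptors, CFLAR, which blocks caspase-8, was higher in RM, on 223 reads against 97 in LD (difference 2.10, read ratio 2.64, 2.07 to 3.38, so the difference was larger in TPM than in reads), and the TNF receptor TNFRSF1A was lower in RM, on 113 reads against 326 (difference -1.41, read ratio 0.398, 0.318 to 0.494). Among other relatives of the family, the mitophagy receptor BNIP3L was lower in all 3 libraries (differences -1.04 with IL-6, -1.75 with IL-8 and -1.40 in RM). Some of these lower calls pass the threshold by less than the shifts of median-ratio scaling, so they depend on the scaling. They are BIRC2 and BIRC5 with IL-8, and TNFRSF1A and BNIP3L in RM. The RM shift acts upward, so it would take BIRC5 in RM (0.87, read ratio 2.16, 1.76 to 2.65) past the threshold as higher.

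**Figure D4:**
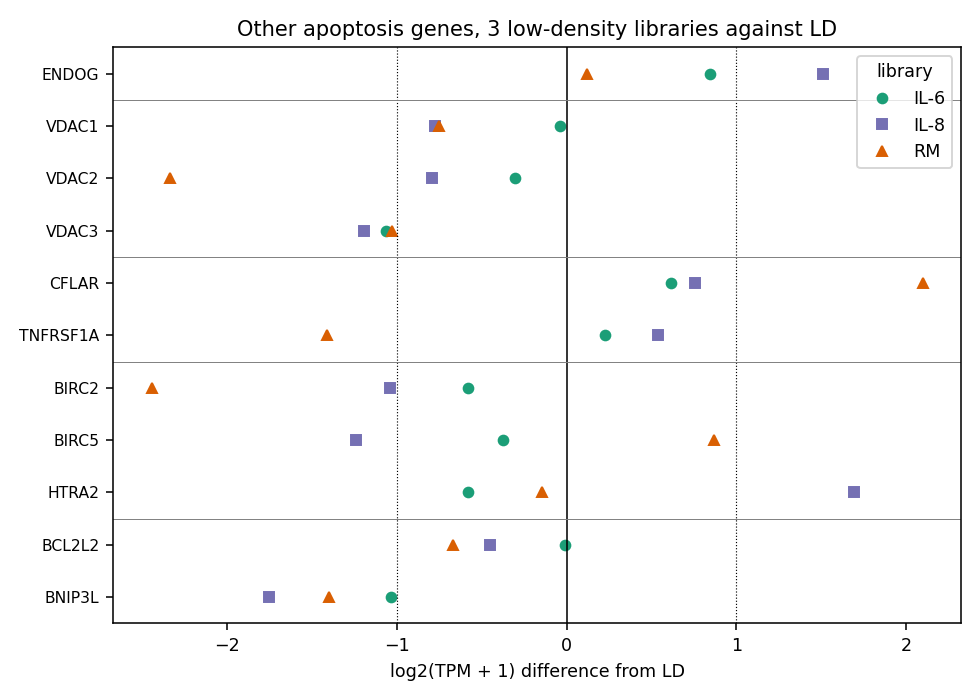
Difference from LD in log2(TPM + 1) units (horizontal axis) for 11 of the other apoptosis genes described above (DIABLO is not plotted). Symbols are IL-6 (circles), IL-8 (squares) and RM (triangles), 1 library each. Horizontal lines separate the lists and dotted lines mark 1 log2 unit. More symbols lie left of 0 than right, with CFLAR in RM (2.10) the farthest to the right and BIRC2 in RM (-2.45) the farthest to the left.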

How the data were processed

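RNA-seq was analysed from 5 HT1080 libraries, 1 per condition. The authors primed poly-A RNA, amplified the cDNA pool with phi29 polymerase, tagmented it and sequenced it. Per the labels, reads were processed with CASAVA 1.4, Bowtie2 2.3.1 and RSEM 1.2.25, and GRCh37 and hg19 are named as builds; the annotation, settings and use of strand are not given in the sources used here. The authors deposited an estimated count (RSEM, whole numbers) and a TPM value per gene. The deposited TPM columns were rescaled to a sum of 1000000.

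The members and lists were chosen with earlier results of these data known. No test between conditions was possible. Differences are log2(TPM + 1) with a threshold of 1, over the genes that reached 1 TPM in any library. Read ratios carry exact conditional intervals, ratios of pairs the exact conditional interval of an odds ratio, and ratios of summed TPM a delta-method interval from the counts. All are 95% intervals and cover the counting of reads only; amplified reads are not independent molecules. The length implied by counts and TPM was checked for members with at least 10 reads and was 0.886 to 1.09 times that in LD. The interval code was tested on simulated counts.

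All 10 members are named. Other genes are named from the fixed lists if they had at least 20 reads in LD and RM and differed by 1 log2 unit with IL-6, IL-8 or RM, or were among the 5 most abundant at low density. A regulator that met this rule is not reported here. BCL2L1, BAK1, BAD, BCL2 and BCL2L11 overlap genes on the opposite strand (GENCODE 29), and BAK1 has processed pseudogenes, so reads could be shared. Pair ratios, the 20-read background, scaling from the 4 low-density libraries and the addition of BCL2L2 were chosen after seeing the data. Software was scipy 1.17.1, matplotlib 3.10.9, pandas 2.3.3 and numpy 2.4.6 under Python 3.11.15.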

Additional observations from a re-analysis of the deposited data

How the results depend on the processing

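With 1 library per condition, leaving out a replicate was not an option. No paired analysis was possible because each condition has 1 library. No called member changed sign under another pseudocount, scaling or unit, and the cause of the changes in count below was not tested.

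The count of members called depended on the setting, and not every setting is listed. Lower members with IL-8 went from 4 to 2 with a pseudocount of 5, with CPM, with a filter of 10 TPM and with a mean of at least 20 reads, and to 0 at 2 log2 units. They went to 5 with a pseudocount of 0.1 and with CPM without RNA5-8S5, and to 3 with either median-ratio scaling. Lower members in RM went from 4 to 2 with median-ratio scaling over 5 libraries and to 1 at 2 log2 units, and higher members from 0 to 2 (BCL2L1 and BAD) with either median-ratio scaling. Higher members with IL-6 went from 0 to 1 (BCL2L11) with a pseudocount of 0.1. In HD, lower members went from 5 to 8 with median-ratio scaling or CPM without RNA5-8S5 and to 3 at 2 log2 units. Higher members in HD went from 2 to 1 with median-ratio scaling and to 0 with a pseudocount of 5, with a filter of 10 TPM, with a mean of at least 20 reads and at 2 log2 units.

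Of the wider list, 10 genes differed with IL-6, against 17 with a pseudocount of 0.1, 4 with a pseudocount of 5, 1 at 2 log2 units and 6 with a mean of at least 20 reads. In IL-8, 19 differed, against 25 with a pseudocount of 0.1, 12 with CPM and 4 at 2 log2 units. In RM, 23 differed, against 28 with a pseudocount of 0.1, 13 with a pseudocount of 5 and 6 at 2 log2 units. The RM count was 14 with a mean of at least 20 reads, where fewer genes were compared. In HD, 41 differed (24 higher and 17 lower), against 21 with that filter (7 higher and 14 lower). Over all genes tested in HD, 61.9% were higher and 17.9% lower, and over well-counted genes 20.5% and 44.7%. Most genes differed in HD, so nothing is read from its counts about the list. The shares for the other libraries are given above with the list.

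The pro- to anti-apoptotic ratio moved with its make-up. From read counts (CPM, with or without RNA5-8S5) it was 2.99 in LD, 1.28 with IL-6, 3.19 with IL-8, 1.85 in RM and 1.03 in HD, which are not corrected for length. Without BAX and BCL2L1 it was 40.4, 20.7, 71.7, 55.1 and 13.5 in the same order, and with BCL2L2 added 1.78, 1.10, 2.31, 2.15 and 1.23. IL-6 was the lowest of the 4 low-density libraries in each.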

Other observations

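Regulators of the family, from the same list and not described above, were also read out in these libraries (no replicates). MDM2, a ubiquitin ligase, was lower in TPM with IL-8 (-1.21) and RM (-1.09), but its read ratios were 0.792 (0.506 to 1.22) and 0.892 (0.601 to 1.32), both intervals holding 1, and no difference of MDM2 is read from the TPM values.

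STAT3, through which IL-6 signals, had 331 reads in LD, 114 with IL-6, 57 with IL-8 and 203 in RM, with differences of -0.86, -1.89 and -1.21. In RM the read ratio was 0.704 (0.588 to 0.840), a smaller difference than in TPM. These files hold no measure of STAT3 activation. FOXO3, a factor that induces BBC3 and BCL2L11, had 149 reads in LD, 53 with IL-6, 19 with IL-8 and 35 in RM, with differences of -0.80, -2.09 and -1.71. Of the enzymes that act on MCL1, 2 were lower in RM. USP9X, which spares MCL1, had 34 reads against 167 in LD (-1.81, read ratio 0.234, 0.157 to 0.339), and FBXW7, which marks it for degradation, had 34 against 102 (-1.58, read ratio 0.382, 0.251 to 0.569). BAG3, a co-chaperone that supports survival, was lower with IL-8 (-1.14) and stood at 0.67 in RM. E2F1, a cell cycle factor, was higher with IL-6, on 53 reads against 29 (1.30, read ratio 2.73, 1.71 to 4.46). ATF4, a stress factor and by mean TPM the most abundant of these regulators, differed from LD by -0.08 with IL-6, -0.84 with IL-8 and -0.35 in RM. Of the 13 regulators matched, 1 was higher and 1 lower by 1 log2 unit with IL-6, none was higher and 5 were lower with IL-8, and 1 was higher and 5 were lower in RM. MDM2 is among the lower genes of both counts. The lower calls of STAT3 and FBXW7 in RM and of BAG3 with IL-8 pass the threshold by less than the shifts of median-ratio scaling. Those shifts were 0.73 log2 units in RM and 0.45 with IL-8, so these calls depend on the scaling. The lower call of FOXO3 in RM (-1.71) passes the threshold by slightly less than the RM shift, and it was not recomputed. The RM shift acts upward, so it would take BAG3 in RM (0.67, read ratio 1.70, 1.41 to 2.04) past the threshold as higher. Over all genes tested, 16.4% were lower with IL-8 and 20.4% in RM, and over well-counted genes, to which 12 of the 13 regulators belong, 22.3% and 30.7%.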
